A study of Danio rerio with 4 samples.

Results

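The kisspeptin and GnRH axis genes are 8 genes for brain peptides and receptors that act in reproduction. They were chosen by symbol from the 32520 genes of the deposited table: the kisspeptin precursors kiss1 and kiss2, the kisspeptin receptors kiss1ra and kiss1rb, the gonadotropin-releasing hormone (GnRH) precursors gnrh2 and gnrh3, the tachykinin precursor tac3a and the RFamide peptide precursor npvf. All 8 were found, and 6 of them averaged 1 CPM or more across the libraries, where CPM is the count corrected for the depth of its library. The other two, kiss1ra and gnrh2, lay under that level. Brains of wild-type (WT) adult zebrafish were sequenced as 1 library in each of 4 groups: a Control in 0.1% DMSO (dimethyl sulfoxide, the solvent) and butylparaben (BuP) at 0.01, 0.1 and 1.0 mg/L. Butylparaben is a preservative ester of para-hydroxybenzoic acid with weak oestrogenic activity, and the title of the study calls the exposure chronic. The treatment labels name DMSO for the Control alone, and the sex of the fish, their exact age and the number of brains in a library are details the labels leave out.

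In vertebrates, GnRH neurons release their peptide towards the pituitary, where it drives secretion of luteinizing and follicle-stimulating hormone. Kisspeptins act through G-protein-coupled receptors upstream of GnRH neurons in mammals, and neurons that make both kisspeptin and neurokinin B pace that release. Zebrafish have more than one kisspeptin gene: kiss1 is known from the habenula and kiss2 from the hypothalamus. They lack a gnrh1 gene; gnrh3 neurons of the terminal nerve and preoptic area reach the pituitary, and gnrh2 is known from the midbrain tegmentum. Zebrafish that lack kisspeptins or Gnrh3 remain fertile.

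With 1 library in each group, no difference has a replicate or a test, and each one is a difference between libraries. A gene was called higher or lower where its log2 ratio, on the scale of log2(CPM + 0.5), reached 1 in either direction and 1 lay outside the exact 95% counting interval of the ratio. Intervals cover counting error only and leave out the variation between fish. Because the same Control library stands under every dose, an unusual Control would enter all 3 comparisons. In whole-brain RNA, fewer cells of a type and less RNA per cell cannot be told apart.

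Of the 13 gene lists, several but not all summed highest in Control, and 1 of these set it apart most by median log2 ratio. This list holds egg coat and oocyte genes, which are best known from the ovary. It summed to 7002 counts in Control against 134, 136 and 120 counts at 0.01, 0.1 and 1.0 mg/L. At every dose 19 of its 19 measured rows, with zp3.2 in more than 1 row, were called lower. Of all genes, 1.08% were called lower at all 3 doses. Most of these rows passed the 1 CPM filter only through Control, such as zpcx with 10.4 CPM there and 0 CPM at every dose. For them a lower call was largely fixed by the filter. The gene zp3b, at 5.72, 7.24 and 6.79 CPM in the exposed libraries, did not depend on Control to pass. Of the 13 pan-neuronal markers, none was called against Control at any dose. Of all genes, 2.15%, 2.43% and 2.68% were called higher and 2.41%, 2.95% and 2.74% lower at the rising doses. At such shares a list of 13 would often hold no call. Library totals lay between 9750590 and 11099317 counts, at which 1 count equals 0.0891 to 0.106 CPM. Pituitary hormone transcripts were few. The gonadotropin subunit genes had few counts in Control, 0.01, 0.1 and 1.0 mg/L: 6, 3, 5 and 2 for lhb, 3, 1, 1 and 1 for fshb, and 5, 2, 0 and 10 for cga.

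The kisspeptin precursor kiss1 gave the clearest difference among the 8 genes. This gene (ENSDARG00000075829) lies on the minus strand of chromosome 11, from 23311452 to 23322182 on GRCz11, the build of all coordinates here. It had 100, 33, 36 and 40 counts in Control, 0.01, 0.1 and 1.0 mg/L, or 8.91, 3.49, 3.57 and 3.93 CPM. All 3 exposed libraries were low and close to each other, and none of their counting intervals, the highest of which reached 5.36 CPM, met that of Control, which began at 7.25 CPM.

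Against Control, kiss1 was 2.55-fold, 2.49-fold and 2.26-fold lower at 0.01, 0.1 and 1.0 mg/L, with ratios of 0.392 (interval 0.256 to 0.587), 0.401 (0.266 to 0.592) and 0.442 (0.298 to 0.643). It was called lower at each dose, as were 2.41%, 2.95% and 2.74% of all measured genes. Of the 16522 genes measured, 1.54%, 1.96% and 2.18% had a ratio as low or lower at the 3 doses. The call at all 3 doses was shared with 1.08% of genes, 178 in number. Raising the pseudocount to 2 CPM, which shrinks ratios of low genes most, left kiss1 short of the 2-fold mark at all doses, with log2 ratios of -0.99, -0.97 and -0.88.

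In the authors' deposited table, kiss1 was marked as changed at every dose, with log2 fold changes of -1.35, -1.32 and -1.18. The p-values in the authors' deposited table were 0.00157, 0.00593 and 0.0146, and its q-values were 0.0901, 0.235 and 0.424. No other gene of the 8 was marked in the authors' deposited table. Its mark for lower genes covered 2.28%, 2.52% and 2.29% of all 32520 genes at the rising doses, not of the 16522 measured ones. That mark follows the p-value and the fold change, not the q-value.

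**Figure D1:**
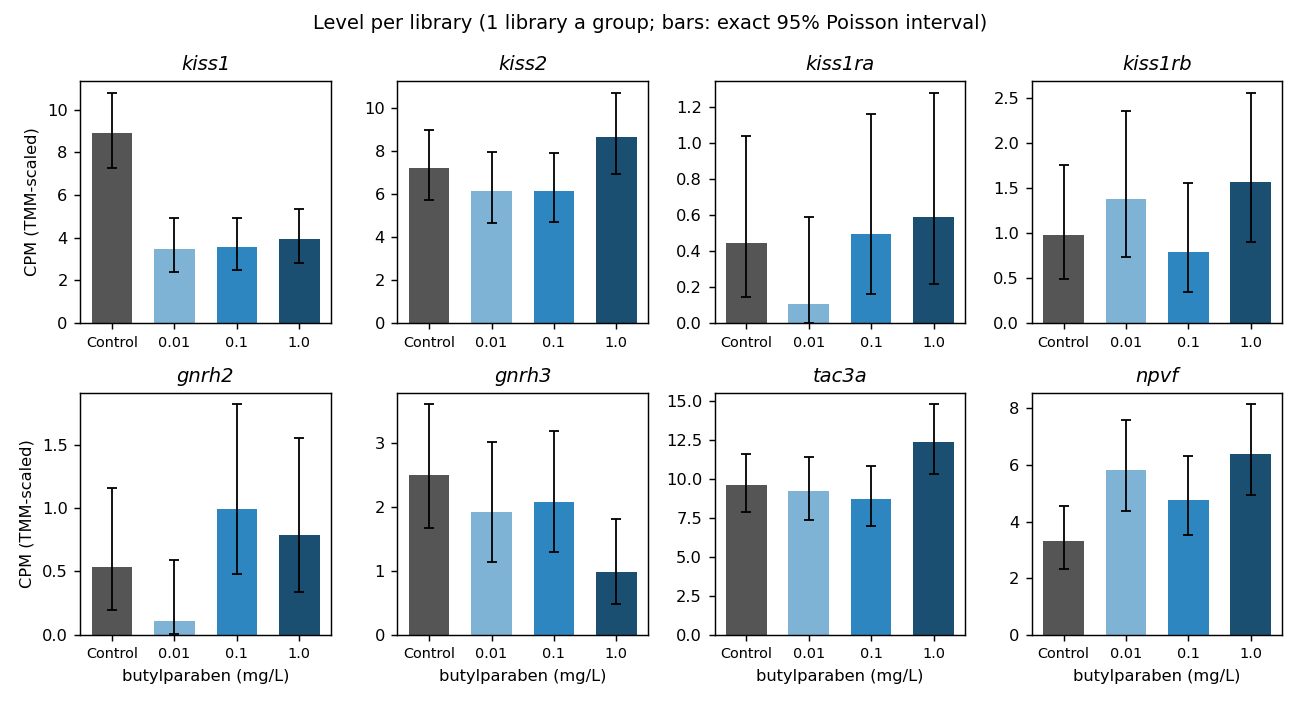
Level of each gene in every library, in CPM after TMM scaling, with the dose of butylparaben in mg/L on the horizontal axis. Filled bars are single libraries and error bars are exact 95% Poisson intervals. The 3 exposed libraries sit at 3.49 to 3.93 CPM for kiss1, under the Control at 8.91 CPM, while the error bars of kiss1ra, kiss1rb and gnrh2 overlap throughout.

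The second kisspeptin precursor, kiss2, did not follow kiss1. The gene (ENSDARG00000077985, chromosome 4, 16827390 to 16828499, plus strand) had 81, 58, 62 and 88 counts in Control, 0.01, 0.1 and 1.0 mg/L, or 7.22, 6.14, 6.15 and 8.65 CPM. Its ratios to Control were 0.851 (interval 0.597 to 1.21), 0.852 (0.602 to 1.2) and 1.2 (0.877 to 1.64) at the rising doses, so a difference from Control was not detectable at this depth, and these intervals do not show that the levels were alike.

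Set against each other inside a library, where scaling cancels, kiss1 was lower relative to kiss2 in all 3 exposed libraries than in Control. By the authors' TPM, which corrects for transcript length, kiss1 stood at 2.22 times the level of kiss2 in Control (interval 1.64 to 3.01), and at 0.981 (0.62 to 1.53), 0.954 (0.615 to 1.46) and 0.773 (0.518 to 1.14) times that level at 0.01, 0.1 and 1.0 mg/L. Relative to Control, the count ratio of kiss1 to kiss2 was 0.462 (0.265 to 0.798), 0.472 (0.275 to 0.802) and 0.369 (0.222 to 0.607). The share of kiss1 in the summed TPM of both genes was 69.0% in Control and 49.5%, 48.8% and 43.6% at the rising doses. Their summed level was 16.1, 9.63, 9.72 and 12.6 CPM across the 4 libraries. At the highest dose the sum came to 0.781 of Control (0.618 to 0.984), against 0.598 (0.459 to 0.773) at the lowest. These pairs of genes were chosen after their levels were seen.

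**Figure D2:**
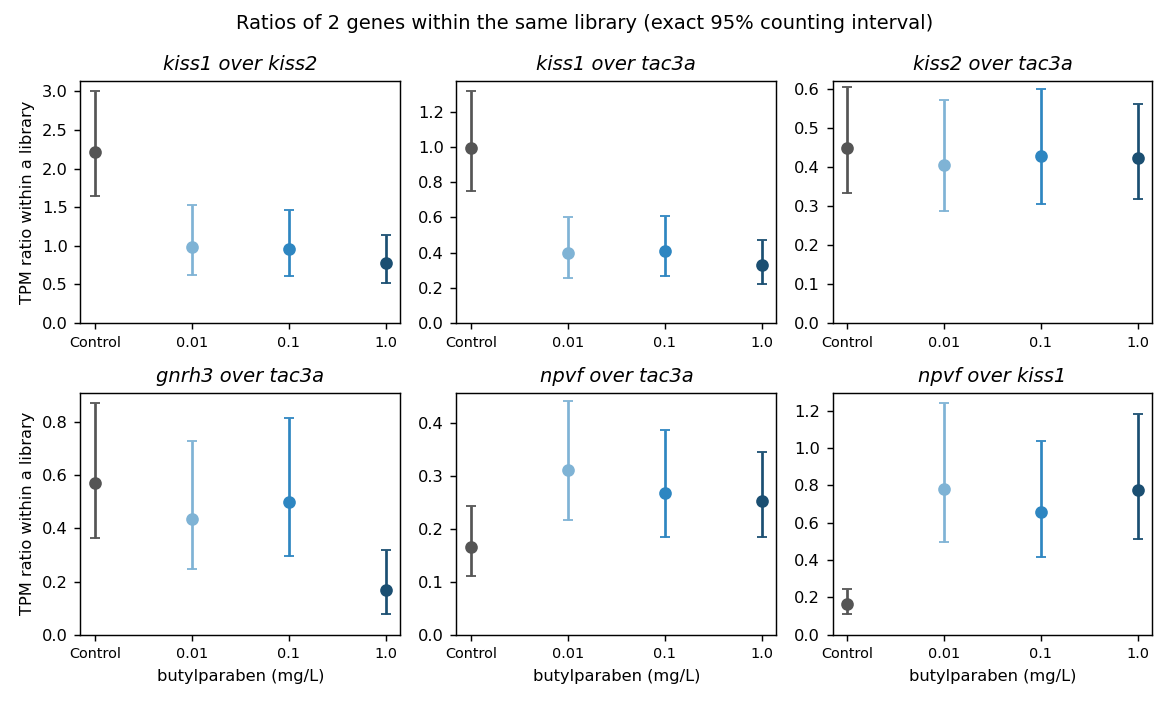
Ratio of the authors' TPM of 1 gene to that of another within the same library, by dose of butylparaben in mg/L, with exact 95% counting intervals as bars. The ratio of kiss1 to kiss2 stands at 2.22 in Control and between 0.773 and 0.981 in the exposed libraries, while the ratio of kiss2 to tac3a stays between 0.405 and 0.449.

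Since kiss1 is known from the habenula, markers of the habenula and of the pineal, which lies beside it, were read with it. The 13 habenula markers summed to 223, 215, 198 and 197 CPM in Control, 0.01, 0.1 and 1.0 mg/L, with none at 0 counts in any library. Of 11 measured, the neuropilin gene nrp1a, a guidance receptor of habenular axons, was called lower at 0.01 and 1.0 mg/L, with 329, 134, 166 and 121 counts across the 4 libraries. The other 10 were not called against Control at any dose. At 0.01 and 1.0 mg/L, 2.41% and 2.74% of all genes were called lower. Picked after their values were seen, the transcription factor gene pou4f1 had 157, 106, 123 and 81 counts, and the marker kctd12.1 had 355, 334, 308 and 344. Among all 11 measured, 5, 4 and 5 lay above Control and 6, 7 and 6 below at the rising doses. The median log2 ratio of the habenula list was -0.07, -0.09 and -0.03 at the rising doses. The pineal list varied more, at 23.2, 17.9, 14.0 and 73.8 CPM, and its high library was 1.0 mg/L. There 4 of 5 measured markers (exorh, aanat2, asmt and gngt1) were called higher, beside 2.68% of all genes. Of these, asmt and gngt1 passed the 1 CPM filter only through 1.0 mg/L, so their higher calls were largely fixed by the filter. In Control, 0.01 and 0.1 mg/L asmt had 0.534, 0.318 and 0.992 CPM and gngt1 had 1.25, 0.741 and 0.198 CPM. At 0.1 mg/L exorh and gngt1 were called lower, beside 2.95% of all genes. The part of nrp1a, of the pineal markers and of the egg coat genes in the kiss1 difference was not tested.

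Both kisspeptin receptors were near the limit of detection. The receptor gene kiss1rb (ENSDARG00000067563, chromosome 5, 69541667 to 69548986, minus strand) had 11, 13, 8 and 16 counts in Control, 0.01, 0.1 and 1.0 mg/L. Its ratios to Control were 1.4 (interval 0.581 to 3.46), 0.81 (0.283 to 2.21) and 1.61 (0.7 to 3.83). The other receptor gene, kiss1ra (ENSDARG00000002728, chromosome 2, 33796207 to 33821163, plus strand), had 5, 1, 5 and 6 counts, and its ratio at 0.01 mg/L of 0.238 had an interval of 0.00503 to 2.12. No interval of either receptor excluded 1. Summed, the receptors had 16, 14, 13 and 22 counts across the libraries.

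Of the GnRH precursors, gnrh3 is the form that serves the pituitary in zebrafish. The gene (ENSDARG00000056214, chromosome 17, 20204122 to 20207376, plus strand) had 28, 18, 21 and 10 counts in Control, 0.01, 0.1 and 1.0 mg/L, or 2.49, 1.91, 2.08 and 0.983 CPM. The 1.0 mg/L library was the lowest, and its interval (0.472 to 1.81 CPM) still met that of Control (1.66 to 3.6 CPM). At 1.0 mg/L gnrh3 was called 2.54-fold lower than Control (ratio 0.394, interval 0.171 to 0.836), a ratio that 2.65% of genes matched or went below. At 0.01 and 0.1 mg/L its ratios were 0.764 (0.398 to 1.43) and 0.835 (0.451 to 1.52) and it was not called.

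The gnrh3 call sat at the edge of the size rule, with a log2 ratio of -1.01. It was lost on library totals (-0.99), with a pseudocount of 2 CPM (-0.59) and after thinning all libraries to the smallest (-0.88). In the authors' deposited table gnrh3 at 1.0 mg/L had a log2 fold change of -1.34, a p-value of 0.057 and no mark. The intervals of 1.0 mg/L over 0.01 and over 0.1 mg/L, 0.213 to 1.18 and 0.199 to 1.05, both held 1.

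Of the regions tied to gnrh3 neurons, the telencephalon and olfactory list was read here, and its markers were mixed. Preoptic markers are given below with those of the hypothalamus. The telencephalon and olfactory list summed to 266, 239, 214 and 224 CPM in Control, 0.01, 0.1 and 1.0 mg/L, with 1 of its 14 members at 0 in each library. The forebrain transcription factor foxg1a was called lower at 0.1 and 1.0 mg/L (115, 58, 40 and 20 counts), and tbr1b, a factor of pallial excitatory neurons, at 1.0 mg/L (153, 98, 90 and 48 counts). The olfactory marker gene ompa was called higher at 0.1 mg/L (11, 23, 25 and 18 counts). Of all genes, 2.43% were called higher and 2.95% lower at 0.1 mg/L, and 2.74% were called lower at 1.0 mg/L. The median log2 ratio of the 11 measured members was -0.2, -0.58 and -0.1 at the rising doses. At 1.0 mg/L, 4 of them lay above Control and 7 below, and the related gene foxg1b had a ratio of 1.01. Both foxg1a and tbr1b were lowest in the same library as gnrh3, but most other measured members of the list were lowest at 0.1 mg/L or in Control. The part of foxg1a and tbr1b in the gnrh3 value was not tested.

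The other GnRH precursor, gnrh2 (ENSDARG00000044754, chromosome 21, 15824182 to 15828029, plus strand), had 6, 1, 10 and 8 counts in Control, 0.01, 0.1 and 1.0 mg/L. Its single count at 0.01 mg/L gave a ratio of 0.198 to Control with an interval of 0.00431 to 1.63. The 10 counts at 0.1 mg/L against 1 count at 0.01 mg/L gave a ratio of 9.37, with an interval of 1.33 to 407, and the gene would be called higher there if no filter on low genes were used. Markers of the midbrain tegmentum, where gnrh2 neurons lie, summed to 133, 146, 168 and 168 CPM across the libraries.

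Tachykinin precursor gene tac3a codes for neurokinin B and a related peptide in zebrafish, and its mammalian counterpart is made by kisspeptin neurons. The gene (ENSDARG00000093089, chromosome 23, 28139489 to 28141419, minus strand) had 108, 87, 88 and 126 counts in Control, 0.01, 0.1 and 1.0 mg/L, or 9.62, 9.21, 8.73 and 12.4 CPM. It overlaps a processed transcript on the other strand, BX663515.1, which had 0 counts in all libraries. Ratios of tac3a to Control were 0.957 (interval 0.713 to 1.28), 0.907 (0.677 to 1.21) and 1.29 (0.988 to 1.68). Against tac3a in the same library, kiss1 stood at 0.996 of its TPM in Control and at 0.398, 0.409 and 0.328 at the rising doses, and the count ratios over Control were 0.411 (0.244 to 0.681), 0.443 (0.266 to 0.727) and 0.344 (0.213 to 0.548).

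The RFamide precursor npvf codes for peptides of the gonadotropin-inhibitory hormone type, which lower gonadotropin release in birds and mammals, and in zebrafish larvae npvf neurons of the hypothalamus promote sleep. The gene (ENSDARG00000036227, chromosome 19, 19976990 to 19980132, plus strand) had 37, 55, 48 and 65 counts in Control, 0.01, 0.1 and 1.0 mg/L, or 3.3, 5.82, 4.76 and 6.39 CPM. All exposed libraries lay above Control. The ratios were 1.77 (interval 1.14 to 2.76), 1.44 (0.921 to 2.28) and 1.94 (1.28 to 2.99) at the rising doses. On the log2 scale these were 0.74, 0.47 and 0.86, so the counting interval excluded 1 at 0.01 and 1.0 mg/L but no dose reached the 2-fold mark and npvf was not called. The ratio of npvf was at or above that of 95.8%, 89.0% and 96.1% of genes. In the authors' deposited table the p-values of npvf were 0.0733, 0.305 and 0.059, with no mark.

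Because npvf lay above Control and kiss1 below it, their ratio within a library differed more than that of any other of the 6 pairs compared. The TPM ratio of npvf to kiss1 was 0.165 in Control and 0.781, 0.656 and 0.773 at 0.01, 0.1 and 1.0 mg/L. Relative to Control that is a count ratio of 4.47 (2.44 to 8.32), 3.58 (1.95 to 6.66) and 4.36 (2.46 to 7.86).

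**Figure D3:**
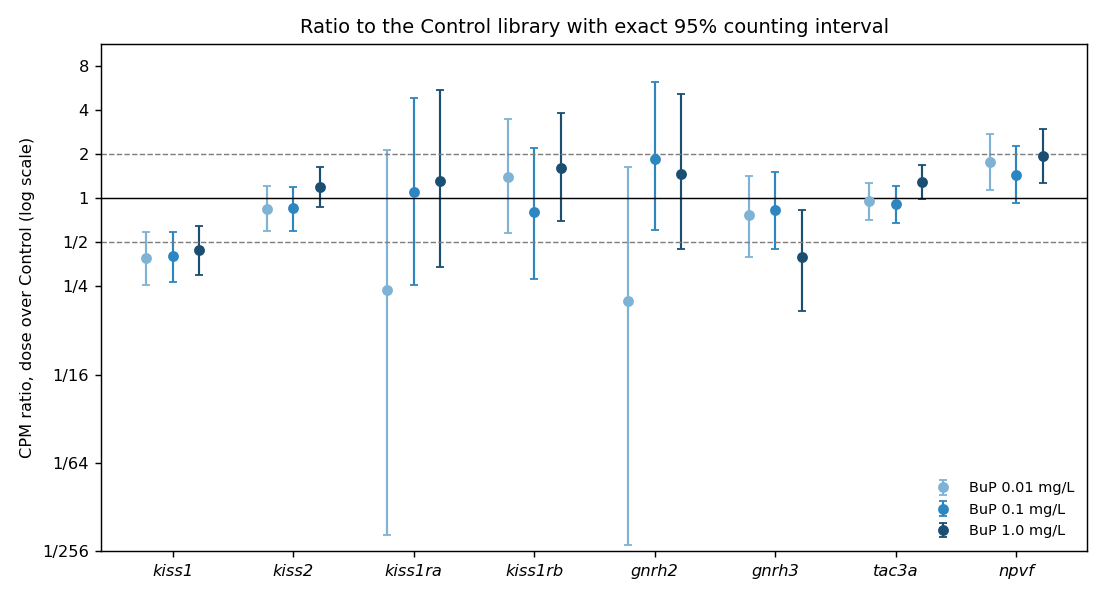
Ratio of CPM in each exposed library to Control for the 8 genes, on a log axis, with exact 95% counting intervals. The points of kiss1 lie at 0.392 to 0.442 at all 3 doses, that of gnrh3 at 0.394 at 1.0 mg/L, and those of npvf between 1.44 and 1.94; kiss1ra and gnrh2 have the widest intervals.

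Counting the genes together, 1, 1 and 2 of the 6 measured genes were called lower at 0.01, 0.1 and 1.0 mg/L, beside the 2.41%, 2.95% and 2.74% of all genes. None of the 6 was called higher, against 2.15%, 2.43% and 2.68% of all genes. The median log2 ratio of the 6 was -0.14, -0.2 and 0.3 at the rising doses, beside a median of -0.01, 0 and 0 over all genes. The calls at 0.01 and 0.1 mg/L were kiss1 alone, and those at 1.0 mg/L were kiss1 and gnrh3. Summed over the 6 peptide genes, the level was 32.1, 26.7, 26.3 and 33.1 CPM in Control, 0.01, 0.1 and 1.0 mg/L.

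Between doses, none of the 6 measured genes was called, where 3.35% (0.1 over 0.01 mg/L), 3.4% (1.0 over 0.01 mg/L) and 3.26% (1.0 over 0.1 mg/L) of all genes were called in either direction. The kiss1 level at 1.0 mg/L was 1.13 times that at 0.01 mg/L (interval 0.692 to 1.84), so no trend with dose could be seen in it. Both kiss2 and tac3a were highest at 1.0 mg/L: the ratio of 1.0 over 0.1 mg/L was 1.41 for kiss2 (1.01 to 1.98) and 1.42 for tac3a (1.07 to 1.89), under the 2-fold mark.

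Across genes, levels were compared by the authors' TPM. The tachykinin gene tac3a stood first in every library, at 22.2, 18.01, 20.32 and 29.48 TPM in Control, 0.01, 0.1 and 1.0 mg/L. In Control kiss1 was level with it at 22.12 TPM, and gnrh3 came next at 12.66 TPM. In the exposed libraries kiss1 had 7.16, 8.31 and 9.66 TPM, beside kiss2 at 7.3, 8.71 and 12.5 TPM. Most neighbours in the order had overlapping counting intervals. They were apart between kiss2 and npvf in Control, between tac3a and the gene after it in each exposed library, and between npvf and kiss1rb at 0.01 mg/L. The receptor kiss1ra was last in every library, at 0.12 to 0.79 TPM.

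**Figure D4:**
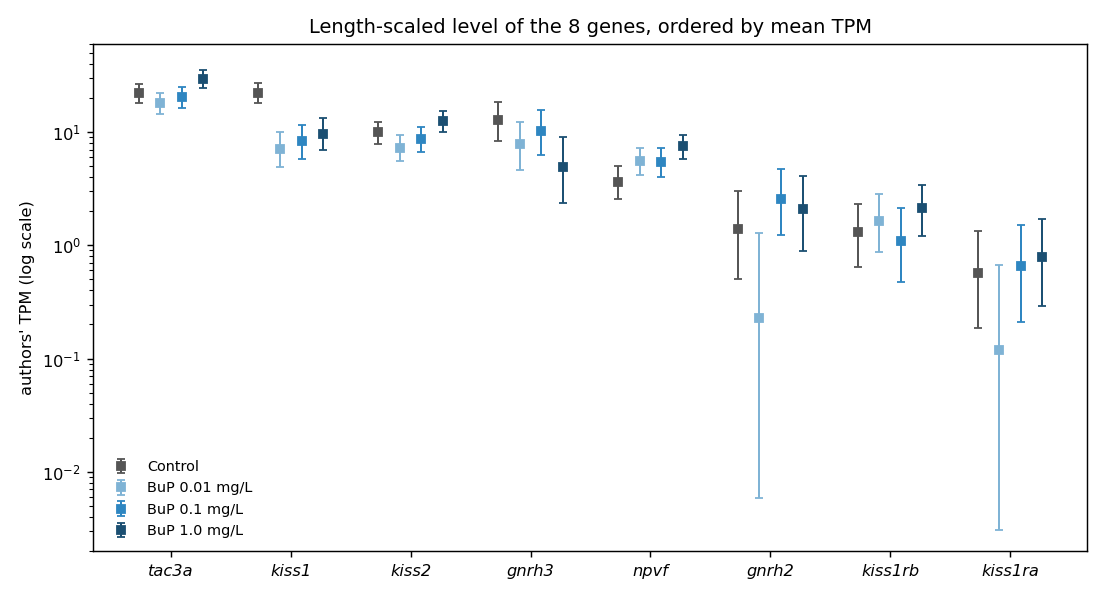
Level of the 8 genes by the authors' TPM on a log axis, ordered by mean TPM, with 1 point for each library and exact 95% counting intervals. In Control kiss1 stands level with tac3a at about 22.1 TPM, and in the exposed libraries it has 7.16 to 9.66 TPM while tac3a has 18.01 to 29.48 TPM.

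Genes next to the 8 on their chromosomes were read for the same libraries. Beside kiss1, the calcium pump gene atp2b4 had log2 ratios of 0, 0.02 and -0.15 at the rising doses and plekha6 had 0.3, 0.3 and 0.25, none of them called. Of the 16 neighbouring genes, 1 was called against Control at any dose: znf385a, 44464 bases from tac3a, was lower at 0.1 mg/L (log2 ratio -1.07). At that dose 2.95% of all genes were called lower. The lactate dehydrogenase gene ldhba ends 253 bases from kiss2 on the opposite strand at 543 to 602 CPM, far above the level of kiss2, and although the library kit keeps strand, whether the counting used it is not stated.

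Genes whose levels were nearest to kiss1 over the 4 libraries, by Euclidean distance of centred log2(CPM + 0.5), were fgf1a (distance 0.1), which codes for a fibroblast growth factor, corin (0.11), a serine protease, and clcn6 (0.14), a chloride transporter. For example, fgf1a had 6.59, 2.43, 2.78 and 2.95 CPM across the 4 libraries. Nearest to gnrh3 were susd1, col9a2 and dlx2b, the last a transcription factor of forebrain interneurons with 4.36, 3.71, 3.57 and 1.97 CPM across the libraries. Nearest to npvf were scin (1.16, 2.22, 1.88 and 2.56 CPM), the somatostatin precursor gene sst1.2 and mhc1zba. For kiss2 they were lrit3a, fgf6a and gpalpp1, and for tac3a they were abcc9, tmtc2a and pold2. Of 13362 genes compared, 19 lay within a distance of 0.25 of kiss1, 59 of gnrh3 and 879 of tac3a.

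Around the 8 genes, 14 of the 23 receptors and partner genes of the reproductive axis in the table were measured. None of them was called against Control at any dose, and their median log2 ratio was -0.07, -0.26 and -0.37 at the rising doses. Of all genes, 2.15%, 2.43% and 2.68% were called higher and 2.41%, 2.95% and 2.74% lower. A list of 14 would often hold no call at such shares. Of the 14, 7, 3 and 5 lay above Control and 7, 11 and 9 below. Short of the 2-fold mark, the neuropeptide Y gene npy had ratios of 0.525 (interval 0.476 to 0.579), 0.641 (0.586 to 0.701) and 0.514 (0.466 to 0.565). The genes gad1b and gad2 were also below Control at every dose, with ratios of 0.679 and 0.73 at 1.0 mg/L. The tachykinin precursor tac3b had 15, 7, 10 and 11 counts in Control, 0.01, 0.1 and 1.0 mg/L. GnRH receptor genes were at the floor of detection, with 0, 2, 3 and 3 counts for gnrhr1, 0, 0, 2 and 3 for gnrhr2 and 5, 2, 1 and 0 for gnrhr4. The neurokinin receptor gene tacr3a had 0, 0, 2 and 4 counts. Receptor npffr1, of a family that RFamide peptides bind, was better covered at 52, 49, 55 and 55 counts; it was picked after its values were seen.

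The list of other RFamide and tachykinin peptides and receptors had 6 measured genes. Among them npffl, annotated as like the neuropeptide FF precursor, was called lower at every dose. It had 28 counts in Control and 5, 4 and 6 counts at 0.01, 0.1 and 1.0 mg/L, with ratios of 0.212 (interval 0.064 to 0.557), 0.159 (0.0405 to 0.455) and 0.237 (0.0801 to 0.582). Like kiss1, this gene was low in all exposed libraries. None of them held more than 0.59 CPM of npffl, so its 2.49 CPM in Control alone carried it past the 1 CPM filter. A lower call for npffl was therefore largely set by that filter. A lower call at every dose was given to 1.08% of all genes. In the same list prlh2, a prolactin-releasing hormone gene, was called higher at 1.0 mg/L, with 19, 24, 22 and 63 counts across the libraries. At 1.0 mg/L 2.68% of all genes were called higher.

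Of 12 measured genes of steroid feedback, 1 was called against Control, at 0.01 mg/L, where 2.15% of all genes were called higher. The oestrogen receptor gene esr1 had 34, 68, 38 and 36 counts in Control, 0.01, 0.1 and 1.0 mg/L, and was 2.38 times its Control level at 0.01 mg/L (interval 1.55 to 3.7). The ratios at the higher doses were 1.24 (0.763 to 2.04) and 1.17 (0.711 to 1.93). Brain aromatase, cyp19a1b, which makes oestrogen in radial glia and responds to oestrogen in zebrafish, was at 574, 659, 474 and 595 CPM and was not called.

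Of 13 measured rows for peptide processing, 1, 0 and 2 were called higher and 1, 1 and 0 lower at 0.01, 0.1 and 1.0 mg/L. Of all genes, 2.15%, 2.43% and 2.68% were called higher and 2.41%, 2.95% and 2.74% lower. The list median log2 ratio was -0.17, 0.08 and -0.01. The prohormone convertase gene pcsk2 was lower at 0.01 mg/L (156, 62, 75 and 112 counts in Control, 0.01, 0.1 and 1.0 mg/L) and pcsk1 at 0.1 mg/L (168, 76, 65 and 82 counts). The glutaminyl cyclase gene qpct, whose product caps GnRH peptides, was higher at 1.0 mg/L (23, 33, 27 and 49 counts). One of the rows named scg5, a chaperone of the convertase, was higher at 0.01 and 1.0 mg/L, with 9, 30, 15 and 145 counts, while the other row of that name had 5158, 4429, 5024 and 4647 counts. Whether the counting split reads between the rows of that name was not tested.

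Hypothalamic and preoptic markers, the home of kiss2 and npvf, had 24 measured members and summed to 858, 916, 765 and 884 CPM in Control, 0.01, 0.1 and 1.0 mg/L. At 0.01, 0.1 and 1.0 mg/L, 1, 3 and 1 of them were called lower and 0, 0 and 2 higher. Of all genes, 2.41%, 2.95% and 2.74% were called lower and 2.15%, 2.43% and 2.68% higher. Oxytocin, oxt, was lower at 0.1 and 1.0 mg/L with 1568, 2017, 649 and 225 counts across the libraries. The melanin-concentrating hormone gene pmchl, which was higher at 1.0 mg/L, had 1131, 955, 1463 and 3171 counts. Also called were agrp, of feeding neurons, which was lower at 0.1 mg/L, and the transcription factor genes rx3, lower at 0.01 and 0.1 mg/L, and nkx2.4b, higher at 1.0 mg/L. None of the list was at 0 counts, and the part of these markers in the npvf values, or of the preoptic ones in the gnrh3 value, was not tested.

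Midbrain tegmentum markers had 2 of 13 called higher at 0.1 mg/L, en1a and th, and slc6a3 at 1.0 mg/L, of which th and slc6a3 are genes of dopamine neurons. Of all genes, 2.43% were called higher at 0.1 mg/L and 2.68% at 1.0 mg/L. Radial glia markers had 1 of 9 called against Control, the glutamate transporter gene slc1a3b, higher at 1.0 mg/L (92, 71, 47 and 173 counts in Control, 0.01, 0.1 and 1.0 mg/L). The list as a whole went the other way, with 8, 8 and 6 of the 9 below Control at the rising doses. Its median log2 ratio was -0.27, -0.43 and -0.04. In the pituitary list 3 of 12 genes were measured, and none was called against Control.

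**Figure D5:**
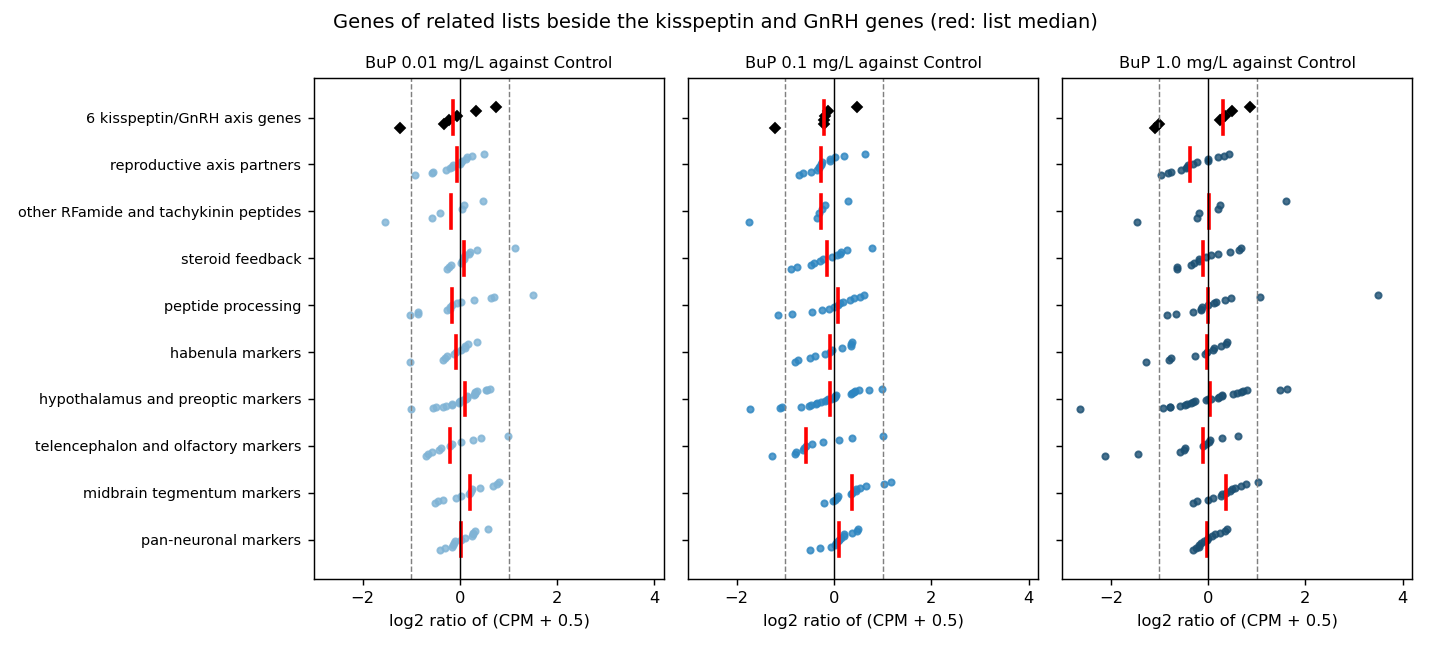
Log2 ratio of (CPM + 0.5) to Control for each measured gene of the related lists and the 6 measured kisspeptin and GnRH axis genes, with 1 panel for each dose; red marks are list medians and dashed lines mark a 2-fold change. Medians of the axis partners lie at -0.07, -0.26 and -0.37, while single genes of the hypothalamic and telencephalic lists lie beyond the dashed lines.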

How the data were processed

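RNA of WT zebrafish brain was read as 151 bp paired ends from a stranded mRNA kit, per the labels' protocols. The submitters' processing notes name RSEM 1.3.1, STAR 2.7.1a, cutadapt 2.8 and the build GRCz11. The deposited table of 32520 genes holds, per the file headers, an estimated count, an RPKM and a TPM for each gene and library. No count has a decimal, yet 141 of the zeros have a positive RPKM; the deposited counts were therefore read as RSEM expected counts that the authors rounded. Further columns give, per the file headers, the authors' p-value, q-value and log2 fold change of every dose over Control. Which test made them is not given in the sources used here.

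Library totals were 11099317 counts in Control and 10140963, 9907714 and 9750590 counts at 0.01, 0.1 and 1.0 mg/L. Counts were scaled with TMM factors over all genes from edgeR 4.0.16, run in R 4.3.3; they came to 1.01, 0.931, 1.02 and 1.04. A filter of at least 1 CPM, averaged over the 4 libraries, left 16522 genes. Ratios used log2(CPM + 0.5), a scale that understates the change of low genes, and the folds printed leave the 0.5 out. Count ratios have exact 95% Clopper-Pearson intervals given the sum of both counts, and levels have exact Poisson intervals; both cover counting error only. Steps other than scaling used Python 3.11.15, numpy 2.4.6, pandas 2.3.3 and scipy 1.17.1.

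With 1 library in each group, no p-value was computed. The 8 genes, the 13 gene lists and the rules were chosen with earlier results of these data known. Genes named are the 8, the called members of each list (at most 4), a few hormone and receptor genes named whatever their values, and the 3 nearest patterns of each measured gene; those of kiss1rb are not reported here. Pairs of genes compared within a library, pou4f1, kctd12.1, rx3, npffr1, npy, gad1b, gad2, foxg1b and the neighbouring genes named fall outside this rule and were chosen after their values were seen. In all, 11 alternatives were tried, among them size factors of DESeq2 1.42.0, other filters and pseudocounts, thinning, and the deposited TPM and RPKM. Of the lists, the egg coat and oocyte list had a median log2 ratio of -4.94, -5.18 and -5.03 at the rising doses. Sequences were not used here.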

Additional observations from a re-analysis of the deposited data

How the results depend on the processing

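Across the 11 alternatives, 503 of 510 log2 ratios of the 8 genes were called, or not called, as before, 6 lost a call and 1 gained one. Those of kiss1ra and gnrh2 count among the 510 but could be called only with no filter, so elsewhere their agreement was fixed in advance. No called ratio changed sign. Ratios that were not called could move further: that of gnrh2 at 0.01 mg/L against Control, which rests on 1 count, reached -1.62, and those near 0 could change sign. The lost calls are those of kiss1 with a pseudocount of 2 CPM at all doses and of gnrh3 at 1.0 mg/L on library totals, with that pseudocount and after thinning. Over the alternatives that gave a value, kiss1 ranged from -1.56 to -0.99, from -1.41 to -0.97 and from -1.2 to -0.88 at 0.01, 0.1 and 1.0 mg/L, and gnrh3 at 1.0 mg/L from -1.32 to -0.59. At a minimum mean of 5 CPM, kiss1, kiss1rb and gnrh3 are left out. The gained call is gnrh2 for 0.1 over 0.01 mg/L with no filter, at 1.3.

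With no filter beyond 1 count, genes called higher numbered 581, 613 and 680 at the rising doses against Control, genes called lower 669, 810 and 740, and genes called between doses 922, 921 and 913, and 1 of the 8 genes (gnrh2) was called higher for 0.1 over 0.01 mg/L. With a mean of at least 5 CPM, genes called higher numbered 105, 137 and 138, lower 87, 108 and 121, between doses 147, 136 and 133, and 0 of the 8 genes was called lower. With a pseudocount of 2 CPM, genes called higher numbered 105, 142 and 137, lower 196, 221 and 223, between doses 174, 166 and 150, and again 0 of the 8 genes was called lower. These shifts follow from which low genes are tested or how far their ratios are shrunk. On library totals and after thinning, 1 of the 8 genes was called lower at 1.0 mg/L, in place of 2. The main counts against Control were 356, 401 and 443 genes higher and 398, 487 and 452 lower, and 554, 561 and 538 between doses.

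The scaling mattered most at 0.01 mg/L. There 47.2% of calls against Control were higher genes with TMM, 33.9% on library totals (259 higher, 506 lower), 25.9% by TPM (171 higher, 490 lower) and 30.9% by RPKM (188 higher, 420 lower), where the median of all genes moved to -0.12, -0.19 and -0.13, and the cause was not tested. Between doses the share of higher genes over 0.01 mg/L was 50.9% and 54.5% with TMM, 67.4% and 72.5% on library totals, 76.3% and 80.3% by TPM and 64.2% and 71.7% by RPKM for 0.1 and 1.0 mg/L. Calls by TPM and RPKM used the size rule alone, without the counting interval, so they differ from the TMM calls by more than scaling. With a pseudocount of 2 CPM the share against Control was 34.9% (0.01 mg/L) and 38.1% (1.0 mg/L, 49.5% before). List medians near 0 change sign with the setting: that of the hypothalamic list at 0.01 mg/L ran from -0.13 to 0.13. No paired analysis was possible because each group held 1 library, and for the same reason no library could be left out. Genes with few counts, such as kiss1ra and gnrh2, are limited by depth.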
